A study of Mus musculus with 16 samples.

Results

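The genes described here are 7 neighbours on mouse chromosome 4, around the chemokine gene Ccl21f, between positions 42027873 and 42242073 of genome build GRCm39. They are 4933409K07Rik, Ccl21f, Gm17167, Gm13301, Gm5859, Gm54215 and Gm17081, 7 of the 55266 annotated genes that the count matrices hold, and each had 1 transcript there, so the value per transcript and the value per gene are the same. They were chosen by their counts per library, for a joint fall in Upf3b knockout brain against control in both regions studied. The differences between genotypes are therefore given as a description, with no p-value, and how many members passed the calls across all genes is given once with nothing read from it. The comparison between brain regions of the control mice is tested gene by gene. The choice did not use that contrast, but it drew on the control libraries of both regions and favours genes with counts in both.

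RNA sequencing had been performed on frontal cortex (FC) and cerebellum (Cere) of adult mice that lacked Upf3b (Upf3b_KO) and of control littermates (Ctrl), to find the RNAs that depend on Upf3b in the brain. Upf3b acts in nonsense-mediated decay (NMD), by which cells break down some messenger RNAs, among them many with an early stop codon. The 4 groups were Ctrl FC, Upf3b_KO FC, Ctrl Cere and Upf3b_KO Cere, with 4 libraries each, and the cortex and cerebellum came from the same mice, although the labels do not tie a library to a mouse. The labels do not give the strain or the knockout allele, or the sex or exact age. Of the 16 libraries, 15 held between 27660078 and 35238677 counts. The first Upf3b_KO Cere library held 64981 counts, and none of the 7 genes had a count in it. At the mean Ctrl Cere level only 3.16 counts over all 7 genes would fall in a library of that size, so it was left out and Upf3b_KO Cere has n = 3.

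Levels are given as CPM, a count divided by the total of its library and scaled to a common depth, from the expected counts per transcript that the authors estimated. A limit of 3 counts, which a library with none of a gene could still hide, was 0.0903 CPM on average in Ctrl FC and 0.0926 CPM in Upf3b_KO Cere. This limit covers counting error only. The knocked-out gene checked the labels: Upf3b stood at 14.8 ± 0.637 CPM (SD, n = 4) in Ctrl FC and 0.559 ± 0.257 CPM (n = 4) in Upf3b_KO FC, and at 22.7 ± 1.23 CPM (n = 4) in Ctrl Cere and 0.737 ± 0.198 CPM (n = 3) in Upf3b_KO Cere.

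Ccl21 is a chemokine, a small secreted protein that guides cells along a gradient. With Ccl19 it is a ligand of the receptor Ccr7 and draws dendritic cells and T cells to lymphatic vessels and lymph nodes. The mouse genome carries several near-identical Ccl21 genes, which are known in a form with leucine and a form with serine at a single place in the protein. The same stretch of chromosome 4 also holds duplicated copies of Ccl27 and of the interleukin-11 receptor alpha chain, and many pseudogenes related to the Spata31 family, whose intact members are known from the testis. A pseudogene is a copy of a gene that no longer codes for a full protein.

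The members fall into 3 kinds by annotation. Ccl21f, at 42114817-42115917 on the plus strand, is the protein-coding member, with 4 exons and a transcript of 837 bases. Gm17167, at 42206998-42235313 on the plus strand, is a long non-coding RNA of 2 exons and 5054 bases. The other 5 are pseudogenes. 4933409K07Rik, at 42027873-42035425 on the minus strand, has 2 exons and 3193 bases. Gm13301, at 42216908-42220148 on the plus strand, lies within the extent of Gm17167 without sharing exonic bases and has 4 exons and 843 bases. Gm5859, Gm54215 and Gm17081 are single-exon genes of 2317, 2324 and 2349 bases on the plus strand, which follow each other at 42234014-42236330, 42236859-42239182 and 42239725-42242073.

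The first set of sequences shows why Ccl21f cannot be told from its copies. Its whole transcript was found with 0 differences inside the transcripts of Ccl21b, Ccl21d and Ccl21e, and with 5 differences inside that of Ccl21a. The coding sequences of Ccl21b, Ccl21d, Ccl21e and Ccl21f were identical over 399 bases. Ccl21a differed at 2 positions, counted from 1 at the first base of the start codon and with the Ccl21f base first: A84T, in codon 28, and T194C, in codon 65, where TTA for leucine in Ccl21f is TCA for serine in Ccl21a. Coding bases 58 to 219 are printed from the GENCODE transcripts, with the 2 codons that differ in capitals.
Ccl21f: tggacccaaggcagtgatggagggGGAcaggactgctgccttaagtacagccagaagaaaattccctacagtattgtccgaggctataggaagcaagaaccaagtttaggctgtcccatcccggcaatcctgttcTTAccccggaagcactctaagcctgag
Ccl21b: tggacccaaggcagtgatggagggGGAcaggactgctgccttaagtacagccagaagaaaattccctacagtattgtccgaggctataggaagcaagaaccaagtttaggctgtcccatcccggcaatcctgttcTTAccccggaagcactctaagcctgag
Ccl21a: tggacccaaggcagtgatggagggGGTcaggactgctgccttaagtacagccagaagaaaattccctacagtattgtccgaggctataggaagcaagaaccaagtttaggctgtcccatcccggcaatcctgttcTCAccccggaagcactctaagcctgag

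The second set shows how little separates the tandem pseudogenes. Gm5859, Gm54215 and Gm17081 are followed by a further copy, Gm10599, which begins 0.557 kb past the last member. Over 2284 aligned bases the 4 copies differed at 27 positions, gaps included. The stretch of 120 bases printed here holds 5 of them, in capitals.
Gm5859: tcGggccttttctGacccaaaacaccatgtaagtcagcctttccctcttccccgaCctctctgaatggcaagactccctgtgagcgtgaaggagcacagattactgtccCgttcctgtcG
Gm54215: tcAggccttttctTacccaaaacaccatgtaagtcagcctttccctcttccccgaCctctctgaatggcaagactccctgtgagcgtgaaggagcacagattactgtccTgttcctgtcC
Gm17081: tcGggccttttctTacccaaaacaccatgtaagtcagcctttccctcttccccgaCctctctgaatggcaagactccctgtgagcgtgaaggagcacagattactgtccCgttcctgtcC
Gm10599: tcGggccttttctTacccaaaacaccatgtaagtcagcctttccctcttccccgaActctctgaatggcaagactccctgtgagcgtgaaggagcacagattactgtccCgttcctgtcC

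Each member transcript was cut into all its words of 31 bases (31-mers), and those words were looked up in every transcript of the files. No 31-mer of Ccl21f was its own, against 0.917% for 4933409K07Rik, 2.71% for Gm5859, 3.97% for Gm54215, 4.27% for Gm17081, 27.6% for Gm17167 and 29.6% for Gm13301. Ccl21f shared nothing with the other 6 members, which were related among themselves. Gm17167 held 94.6% of the 31-mers of Gm5859, 87.3% of those of Gm54215 and 86.3% of those of Gm17081. In part this is the same DNA, since Gm17167 and Gm5859 overlap by 1300 exonic bases on the same strand.

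The 6 members other than Ccl21f matched the Spata31f1 family. 4933409K07Rik was 100% identical to Gm3883 over 2990 aligned bases and 98.3% identical to Spata31f1e over 2993. Gm13301 was 98.5% identical to Spata31f1e over 666 bases, and Gm17081 was 97.7% identical to it over 1099 bases. On chromosome 4, the copies took in introns too: the full extent of Ccl21f was found at 5 places, that of 4933409K07Rik at 2, that of Gm13301 at 3 and that of Gm17167 at 2 (each copy at least 95% identical over at least 90% of the extent). The second place of Gm17167 was at 41857757-41886072, 99.993% identical. Expected counts divide a read that matches several transcripts among them by a model, so the level of a single member depends on its copies.

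**Figure D1:**
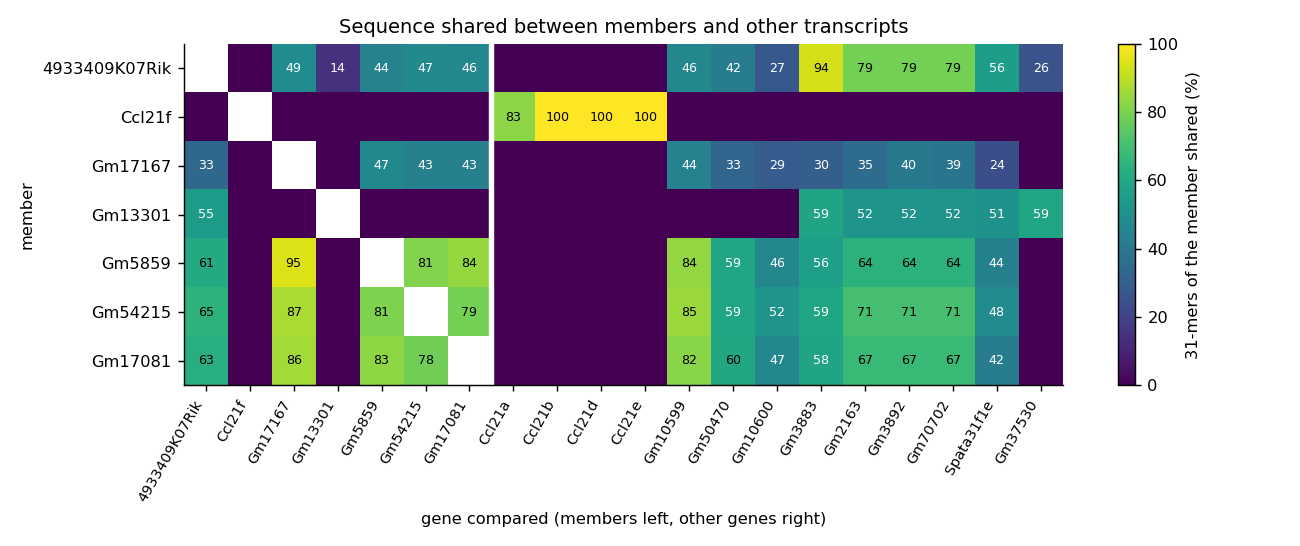
Share of each member's 31-mers (rows, colour and printed value in percent) that also occur in another member (left) or in another gene (right); white cells are a member against itself. Ccl21f shares all its 31-mers with Ccl21b, Ccl21d and Ccl21e and none with the other members, of which Gm5859 shares 94.6% with Gm17167.

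In the control mice the 7 genes together stood at 89.4 ± 5.34 CPM in frontal cortex and 48.6 ± 1.94 CPM in cerebellum (SD, n = 4 each). In the knockout they summed to 20.8 ± 2.85 CPM (n = 4) and 5.48 ± 0.623 CPM (n = 3), which was 23.2% and 11.3% of control. All 7 genes were lower in every Upf3b_KO library than in every Ctrl library in both regions. For comparison, 15.2% of all tested genes had every Upf3b_KO library below every Ctrl library in frontal cortex and 27.1% in cerebellum. The size of the fall differed between members. Ccl21f, Gm17167, Gm5859, Gm54215 and Gm17081 were under 5% of control in both regions. Gm13301 kept 17.9% in frontal cortex and 11.8% in cerebellum, and 4933409K07Rik kept 41.6% and 45.3%.

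Ccl21f stood at 13.3, 14.1, 12.1 and 12.7 CPM in the 4 Ctrl FC libraries and at 0.238, 0.523, 0.198 and 0.0506 CPM in the 4 Upf3b_KO FC libraries. In cerebellum it stood at 11.5, 9.02, 9.93 and 12.1 CPM in Ctrl and at 0.314, 0.255 and 0.206 CPM in Upf3b_KO. The genotypes were far apart, and the knockout libraries of both regions lay in the same low range. The knockout mean was 1.93% of control in frontal cortex and 2.43% in cerebellum, a difference of -5.69 and -5.36 on the log2 scale of group means. Without the second Upf3b_KO FC library, the highest of its group, the log2 difference of Ccl21f in frontal cortex was -6.33.

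The counts that Ccl21f kept in the knockout were few, 31.6 over 4 libraries in frontal cortex and 25 over 3 in cerebellum. Its copies Ccl21b and Ccl21e had a count of 0 in every knockout library. In Ctrl FC, Ccl21b stood at 1.58, 0.628, 1.21 and 0 CPM, and in Ctrl Cere at 0.598, 1.23, 0.7 and 0.383 CPM. Ccl21e had the same values as Ccl21b in every library, since the 2 transcripts are identical, and Ccl21d stood below the limit of 3 counts throughout. A sum over Ccl21b, Ccl21d, Ccl21e and Ccl21f does not depend on which of these copies a read was given to. This sum was 14.8 ± 1.6 CPM in Ctrl FC and 0.252 ± 0.198 CPM in Upf3b_KO FC (n = 4 each). In cerebellum the sum was 12.1 ± 0.813 CPM in Ctrl (n = 4) and 0.258 ± 0.0543 CPM in Upf3b_KO (n = 3). The sum was 58.5-fold lower in the knockout cortex and 46.8-fold lower in the knockout cerebellum. All its knockout counts were those of Ccl21f, and without the second Upf3b_KO FC library it was 91.0-fold lower in the cortex. Ccl21a, the serine form, was near the limit in all groups, with no library above 0.26 CPM.

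Gm17167, the long non-coding RNA, had close levels in all 8 control libraries. It stood at 17.9, 18.6, 18.9 and 16.1 CPM in Ctrl FC and 17.9, 18.6, 18.5 and 18.1 CPM in Ctrl Cere. In the knockout it stood at 0.983, 0.241, 0.337 and 0.368 CPM in frontal cortex and at 0.152, 0.484 and 0.157 CPM in cerebellum, or 2.7% and 1.45% of control, log2 differences of -5.21 and -6.11. The first Upf3b_KO FC library and the third Upf3b_KO Cere library were the highest of their groups, and the log2 differences of Gm17167 were -5.83 and -6.88 without them. No knockout library came near the controls.

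Gm5859, the tandem pseudogene that overlaps Gm17167, had no count in any knockout library of either region. In Ctrl FC it stood at 1.92, 2.34, 2.26 and 3.89 CPM and in Ctrl Cere at 2.28, 3.27, 2.16 and 3.39 CPM. Against the limit of 3 counts per library, it was at least 27.5-fold lower in the knockout cortex and at least 29.9-fold lower in the knockout cerebellum.

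The next copies in the row were also far lower in the knockout. Gm54215 ranged from 2.72 to 3.58 CPM in Ctrl FC and from 0 to 0.148 CPM in Upf3b_KO FC, and from 1.73 to 2.48 CPM in Ctrl Cere and 0 to 0.168 CPM in Upf3b_KO Cere. The log2 difference of Gm54215 in frontal cortex was -5.70, and 4.98 of its 7.94 expected counts in Upf3b_KO FC were in the first library, while in cerebellum all its knockout counts were in the fourth library. Gm17081 ranged from 3.36 to 3.99 CPM in Ctrl FC and from 0 to 0.203 CPM in Upf3b_KO FC, where its log2 difference was -6.10 and 6.22 of its 6.57 expected counts were in the second library. What the other knockout libraries held of Gm54215 and Gm17081 was too little for a fold without these libraries. In cerebellum Gm17081 ranged from 2.5 to 3.99 CPM in Ctrl, and the 3 knockout libraries together held 1.32 expected counts, which is 0.424% of the control level with an interval from 0.00852% to 1.89% (95%, exact, counting error only). Summed with Gm10599, Gm50470 and Gm10600, which have related sequence, the row of pseudogenes stood at 10.7 ± 1.28 CPM in Ctrl FC and 0.147 ± 0.102 CPM in Upf3b_KO FC (n = 4 each). In cerebellum this sum was 8.67 ± 0.512 CPM in Ctrl (n = 4) and 0.0802 ± 0.111 CPM in Upf3b_KO (n = 3), nearly all of it in the fourth library (0.0171 CPM on average without it). The knockout level of this sum was 1.36% of control in frontal cortex and 0.925% in cerebellum. With Gm17167 added, which shares most of the sequence of these pseudogenes, it was 2.2% and 1.28%.

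Gm13301, a 4-exon pseudogene inside Gm17167, had few counts and the widest spread for its level among the members in both control groups. It stood at 3.24, 0.748, 2.21 and 1.87 CPM in Ctrl FC and at 0.525, 0.198, 0.395 and 0.327 CPM in Upf3b_KO FC. In cerebellum it stood at 1.11, 1.78, 1.68 and 1.04 CPM in Ctrl and at 0.497, 0 and 0 CPM in Upf3b_KO. The knockout mean was 17.9% of control in frontal cortex and 11.8% in cerebellum, where all the knockout counts of Gm13301 were in the second library. The gap between the second Ctrl FC library and the highest knockout library was small, 0.748 against 0.525 CPM.

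4933409K07Rik held the most counts of the members in frontal cortex and kept the largest share of its control level in both regions. It stood at 42.6, 53.3, 41.5 and 50.6 CPM in Ctrl FC and at 22.0, 19.9, 16.1 and 20.2 CPM in Upf3b_KO FC. In cerebellum it stood at 9.41, 10.3, 10.9 and 11.2 CPM in Ctrl and at 4.39, 4.19 and 5.59 CPM in Upf3b_KO. The knockout mean was 41.6% of control in frontal cortex and 45.3% in cerebellum, although the levels of the regions differed. 4933409K07Rik made up 94.3% ± 1.72 of the summed members in Upf3b_KO FC (n = 4), against 52.4% ± 3.48 in Ctrl FC (n = 4). Without it, the other 6 members summed to 42.4 ± 1.06 CPM in Ctrl FC and 1.21 ± 0.493 CPM in Upf3b_KO FC (n = 4 each), and to 38.2 ± 1.28 CPM in Ctrl Cere (n = 4) and 0.757 ± 0.198 CPM in Upf3b_KO Cere (n = 3).

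**Figure D2:**
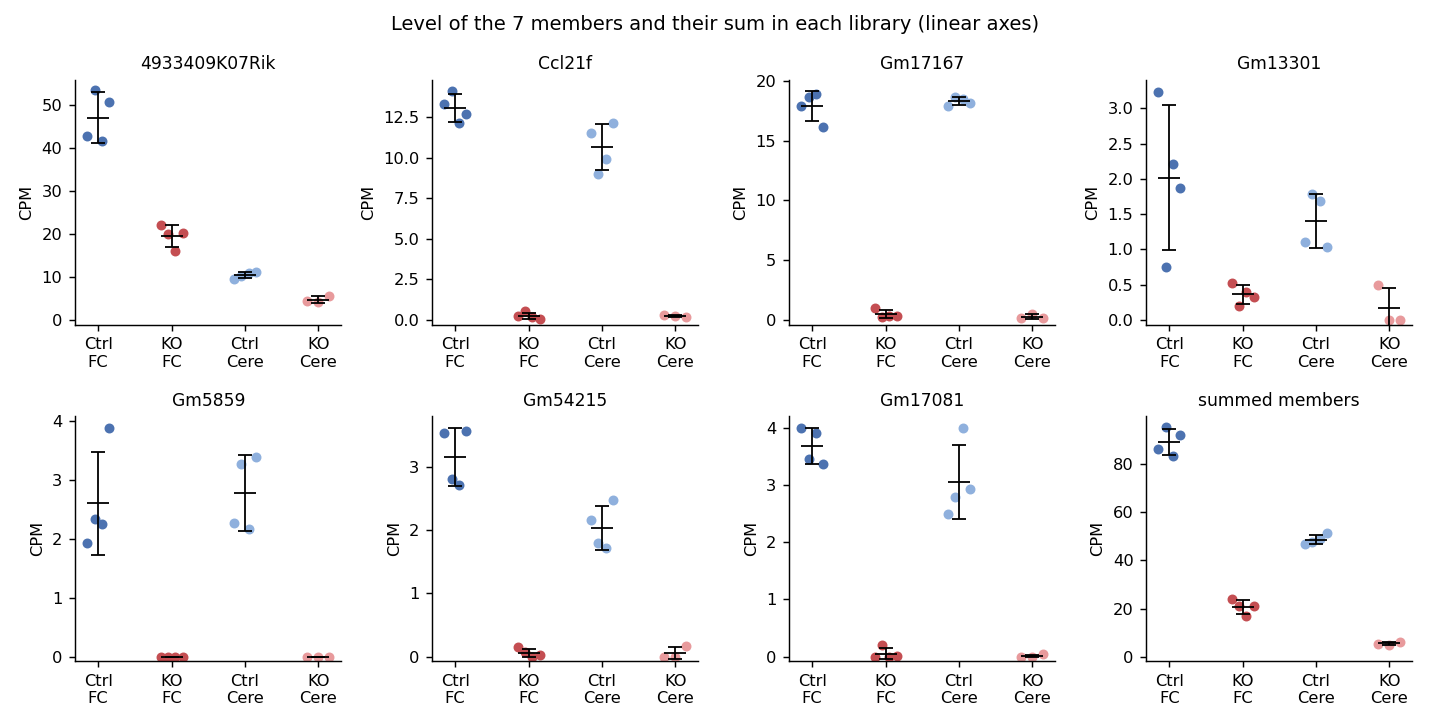
Level in CPM (linear axes) of each member and of their sum in the 15 libraries used, by group; points are libraries and bars the mean ± SD. Every knockout point lies below every control point of its region in all panels, and 4933409K07Rik keeps 41.6% and 45.3% of its control level where Ccl21f keeps 1.93% and 2.43%.

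4933409K07Rik and its closest copy differed in opposite ways between libraries of a group. In Ctrl FC, Gm3883 stood at 9.29, 2.91, 14.7 and 4.87 CPM, high in the 2 libraries in which 4933409K07Rik was low. Together, 4933409K07Rik and the 6 genes that shared at least 50% of its 31-mers gave 56.4, 60.8, 60.8 and 61.8 CPM in Ctrl FC, and 24.7, 27.4, 26.9 and 27.0 CPM in Upf3b_KO FC. In cerebellum they gave 13.5 ± 0.609 CPM in Ctrl (n = 4) and 7.46 ± 0.61 CPM in Upf3b_KO (n = 3). The knockout level of this sum was 44.2% of control in frontal cortex and 55.1% in cerebellum. The 6 copies alone overlapped between genotypes in both regions. They summed to 13.0 ± 4.97 CPM in Ctrl FC and 6.96 ± 3.34 CPM in Upf3b_KO FC (n = 4 each), and to 3.10 ± 0.865 CPM in Ctrl Cere (n = 4) and 2.74 ± 0.384 CPM in Upf3b_KO Cere (n = 3).

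Adding all such copies to all members narrowed the spread between libraries. The summed members with their copies stood at 107 ± 0.946 CPM in Ctrl FC and 28.6 ± 0.675 CPM in Upf3b_KO FC (n = 4 each), where the members alone had SDs of 5.34 and 2.85 CPM. In cerebellum the wider sum was 54.7 ± 1.2 CPM in Ctrl (n = 4) and 8.49 ± 0.472 CPM in Upf3b_KO (n = 3). The level of the wider sum was 3.73-fold lower in the knockout cortex and 6.44-fold lower in the knockout cerebellum.

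**Figure D3:**
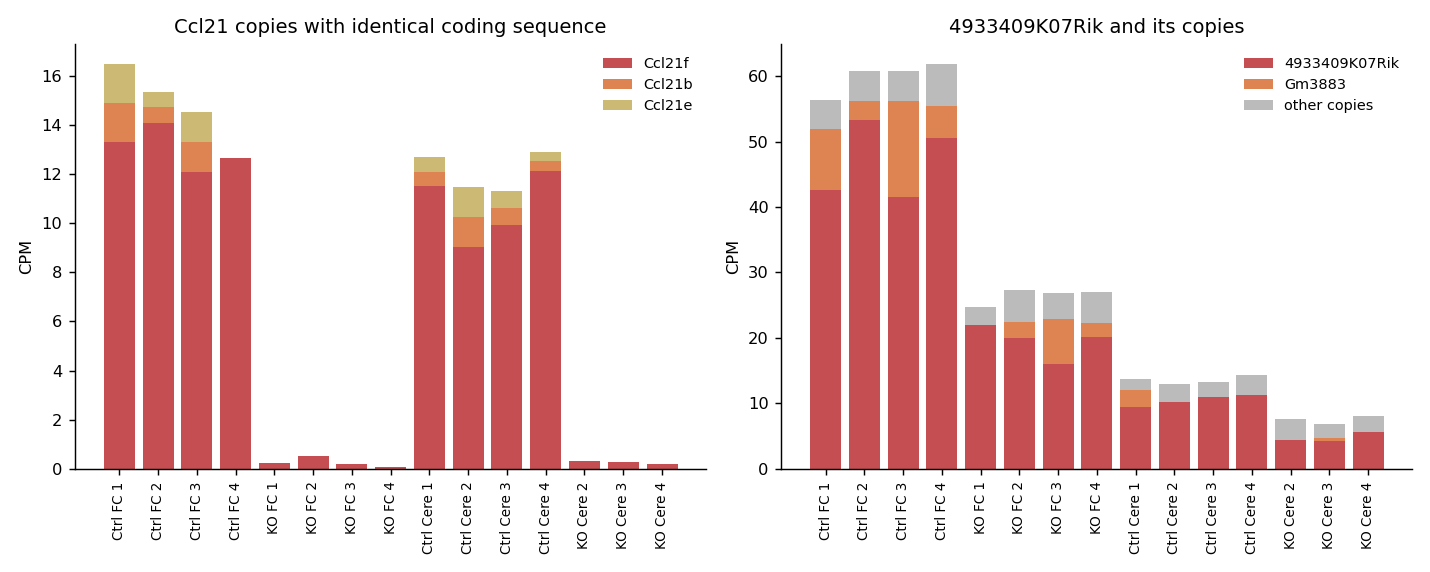
CPM in each library of the Ccl21 copies with identical coding sequence (left) and of 4933409K07Rik with its copies (right), stacked from 0. On the left both Ccl21f and its copies are nearly absent from the knockout libraries, whereas on the right the knockout libraries keep 24.7 to 27.4 CPM in frontal cortex.

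In the fits across all genes, 7 of 7 members passed the filter on low counts and were called lower in each region, by edgeR's quasi-likelihood test at a Benjamini-Hochberg adjusted p under 0.01 and a fold over 2. The share of all tested genes called lower was 1.06% in frontal cortex and 2.86% in cerebellum. The members had been chosen for this, so nothing is read from the counts. Most members passed the filter through the control libraries: 3 of 7 in frontal cortex and 1 of 7 in cerebellum had 10 or more counts in at least 3 knockout libraries. In the fits across all transcripts, 6 of 7 were called lower in frontal cortex, where 0.463% of all transcripts were, and 5 of 7 in cerebellum, where 1.31% were. The members not called there were Gm13301 in both regions and Gm54215 in cerebellum, and the counts were the same as in the gene fits.

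The comparison between control regions asks where in the brain these genes are active. Of the members, only 4933409K07Rik passed both the p and the fold threshold. It was 4.7-fold higher in frontal cortex than in cerebellum, a log2 difference of -2.23 ± 0.08 (cerebellum minus frontal cortex, SE, edgeR, adjusted p = 3.9e-16), with no overlap between libraries. Of all tested genes, 25.1% were called different between the control regions. Nothing is read from the 1 of 7 members beside it, since a member had to be measured in both control regions to be chosen.

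Ccl21f and Gm54215 differed by less. The log2 difference between the regions (cerebellum minus frontal cortex) was -0.35 ± 0.09 for Ccl21f (SE, edgeR, adjusted p = 0.0016) and -0.69 ± 0.16 for Gm54215 (adjusted p = 0.00074), both lower in cerebellum but under a fold of 2. The Ccl21f libraries of the 2 regions overlapped at 12.1 CPM, and those of Gm54215 did not overlap. Both values depend on how reads were divided among copies, and the sums over copies were not tested between regions. The Ccl21 sum given above was 14.8 ± 1.6 CPM in Ctrl FC and 12.1 ± 0.813 CPM in Ctrl Cere, with overlap. The row of pseudogenes with Gm17167 stood at 28.6 ± 0.57 and 27.0 ± 0.695 CPM, without overlap (SD, n = 4 each). Gm17081, at -0.33 ± 0.15 (adjusted p = 0.055), and Gm13301, at -0.57 ± 0.31 (adjusted p = 0.101), did not pass the threshold. Gm17167, at -0.02 ± 0.06 (adjusted p = 0.72), and Gm5859, at 0.04 ± 0.21 (adjusted p = 0.88), had means that differed by less than the SD in Ctrl FC, and the sign of each changed when single libraries were left out.

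**Figure D4:**
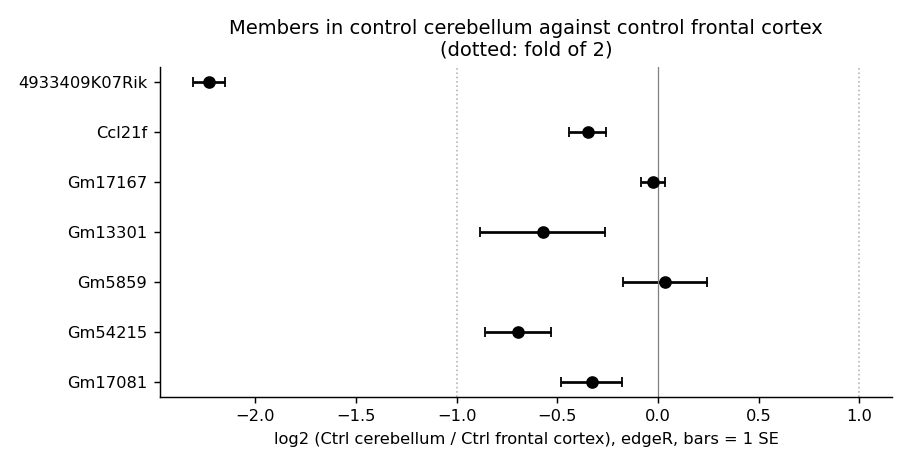
Log2 difference of each member between control cerebellum and control frontal cortex, from edgeR, with bars of 1 SE and dotted lines at a fold of 2; n = 4 libraries per region. Only 4933409K07Rik, at -2.23, lies outside the dotted lines, and Gm17167 and Gm5859 lie near 0.

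Levels of different genes were compared per kilobase of transcript, with lengths from GENCODE vM39, a later annotation than the one counted. In Ctrl FC, Ccl21f stood highest at 15.6 ± 1.02 CPM per kb, and 4933409K07Rik, at 14.7 ± 1.83, overlapped with it (SD, n = 4). Gm17167 followed at 3.54 ± 0.247 CPM per kb, below every 4933409K07Rik library. The remaining 4, Gm13301 at 2.39 ± 1.22, Gm17081 at 1.56 ± 0.135, Gm54215 at 1.36 ± 0.196 and Gm5859 at 1.12 ± 0.377 CPM per kb, each overlapped with the next. In Ctrl Cere the order changed at the top: Ccl21f stood at 12.7 ± 1.71 CPM per kb, clear of Gm17167 at 3.62 ± 0.0651. Gm17167 was clear of 4933409K07Rik, at 3.27 ± 0.247, by a narrow gap. There 4933409K07Rik held 10.4 ± 0.787 CPM alone and 13.5 ± 0.609 CPM with its copies. The order of Gm17167 and 4933409K07Rik may therefore depend on how reads were divided among copies. In both knockout groups 4933409K07Rik was highest, at 6.12 ± 0.786 (n = 4) in frontal cortex and 1.48 ± 0.237 (n = 3) CPM per kb in cerebellum, and no other pair of neighbours in the order was separated.

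No common rise and fall of the members was seen within the control groups. Over the 8 control libraries, after removing each region's mean from log2(CPM + 0.5), the 21 pairs of members had Pearson correlations from -0.68 to 0.61 with a median of -0.09, and the libraries share reads divided among copies. Over all 15 libraries, the 5 genes outside chromosome 4 whose log2(CPM + 0.5) was most like the summed members, among 15750 that passed the filter in both regions, were S1pr1 (r = 0.99), Pclo (r = 0.99), Ddah1 (r = 0.98), Fn1 (r = 0.98) and Cep83os (r = 0.98). These correlations hold the differences between groups, among them the fall by which the members were chosen. They are also the highest of all the candidates, so no link to the members is read from them. S1pr1 encodes a receptor for sphingosine 1-phosphate, Pclo a presynaptic scaffold protein and Fn1 fibronectin. Their levels moved by far less than the members: S1pr1 went from 357 ± 4.47 to 273 ± 5.23 CPM between Ctrl FC and Upf3b_KO FC (n = 4 each), and from 337 ± 5.04 (n = 4) to 211 ± 6.83 CPM (n = 3) between Ctrl Cere and Upf3b_KO Cere.

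Most other genes of the same stretch had too few counts to test. Of the 11 further genes annotated within the span of the members, 4 were tested in frontal cortex and 2 in cerebellum, and 0 were called in either (edgeR), with 1 of the 4 and 1 of the 2 at an unadjusted p under 0.05 and 0 called by DESeq2. Ccl27al, a copy of the skin chemokine Ccl27, stood at 4.27 ± 0.254 CPM in Ctrl FC and 2.78 ± 0.176 CPM in Upf3b_KO FC (n = 4 each), a log2 difference of -0.69 ± 0.13 (SE, adjusted p = 7.2e-05) under the fold of 2. It was nearly absent from cerebellum, at 0.0866 ± 0.0502 CPM in Ctrl (n = 4) and 0.338 ± 0.137 CPM in Upf3b_KO (n = 3). Il11ra3, a copy of the interleukin-11 receptor alpha chain, differed by a log2 value of 0.29 ± 0.51 (adjusted p = 0.67) in frontal cortex and -1.55 ± 0.66 (adjusted p = 0.048) in cerebellum. The long non-coding Gm3892, which holds 79.2% of the 31-mers of 4933409K07Rik, differed by -0.44 ± 0.39 (adjusted p = 0.35) and 0.01 ± 0.92 (adjusted p = 0.99). Gm37530, on the strand opposite to 4933409K07Rik and overlapping it by 845 exonic bases, differed by -0.17 ± 0.45 (adjusted p = 0.78) in frontal cortex and was not tested in cerebellum. Whether the counting used strand is not given in the sources used here, so reads of these 2 genes could not be told apart if it did not. Gm13299, a further gene of the stretch, was tested between the control regions, at 0.41 ± 0.45 (adjusted p = 0.41).

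Within 1 Mb on either side lay 83 flanking genes, 45 of them tested in frontal cortex and 43 in cerebellum. In frontal cortex 4 were called higher and 2 lower, and in cerebellum 2 were called higher and 4 lower. Among all tested genes, 9.16% were called higher and 1.06% lower in frontal cortex, and 10.3% higher and 2.86% lower in cerebellum. The median log2 difference of the flanking genes was 0.04 in frontal cortex and 0.11 in cerebellum, with 0.0037 and 0.0077 over all tested genes. The nearest genes tested in both regions were, on either side, Spata31f1d and Gm10599. Spata31f1d differed by -1.32 ± 0.81 (SE, adjusted p = 0.18) in frontal cortex and 0.72 ± 0.58 (adjusted p = 0.29) in cerebellum. In the third library of both FC groups Spata31f1d was high and Spata31f1c low, and the sum of Spata31f1c and Spata31f1d was lower in every Upf3b_KO FC library than in every Ctrl FC library, at 20.4 ± 1.68 CPM in Ctrl FC and 9.77 ± 2.3 CPM in Upf3b_KO FC (n = 4 each), or 47.8% of control. In cerebellum this sum overlapped between genotypes, at 4.78 ± 2.36 CPM in Ctrl (n = 4) and 6.19 ± 0.989 CPM in Upf3b_KO (n = 3). Gm10599, the tandem copy shown above, had no count in any knockout library: it was at least 9.66-fold lower in the knockout cortex and at least 5.7-fold lower in the knockout cerebellum, where 1 Ctrl library was at 0 too. It shares 83.6% of the 31-mers of Gm5859, so its calls are not independent of the choice of members.

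Of the other flanking genes called lower, all but Ccl19 share sequence with members. Ccl21b and Ccl21e, 13.6 kb and 370 kb past the span, were called lower in cerebellum and were not tested in frontal cortex. Each was at 0 in the knockout, at least 7.86-fold lower in cerebellum. They hold all 31-mers of Ccl21f and have the same values as each other, so their calls are not independent of the choice of members. Gm2163, which holds 79.2% of the 31-mers of 4933409K07Rik, stood at 0.622 CPM in Ctrl FC and at 0 in every Upf3b_KO FC library, at least 6.57-fold lower, while in cerebellum its groups overlapped. Ccl19, the other ligand of Ccr7, was also called lower in cerebellum and is described with the chemokine genes. The flanking genes called higher were Aqp7, a water and glycerol channel, Spmip6 and Dnai1, which belong to the microtubule structures of cilia and sperm tails, and the Spata31 genes Spata31f1a and Spata31f3. Spmip6 was called higher in both regions, with log2 differences of 2.06 ± 0.14 in frontal cortex and 2.31 ± 0.26 in cerebellum. Spata31f3 rose in frontal cortex, by 1.35 ± 0.1, where Spata31f1a rose by 2.29 ± 0.39 and Aqp7 by 3.34 ± 0.25. Dnai1 rose in cerebellum, by 1.11 ± 0.18. The intact Spata31f1e, to which several members are related, differed by 0.05 ± 0.17 (adjusted p = 0.82) in frontal cortex and -0.03 ± 0.27 (adjusted p = 0.92) in cerebellum.

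**Figure D5:**
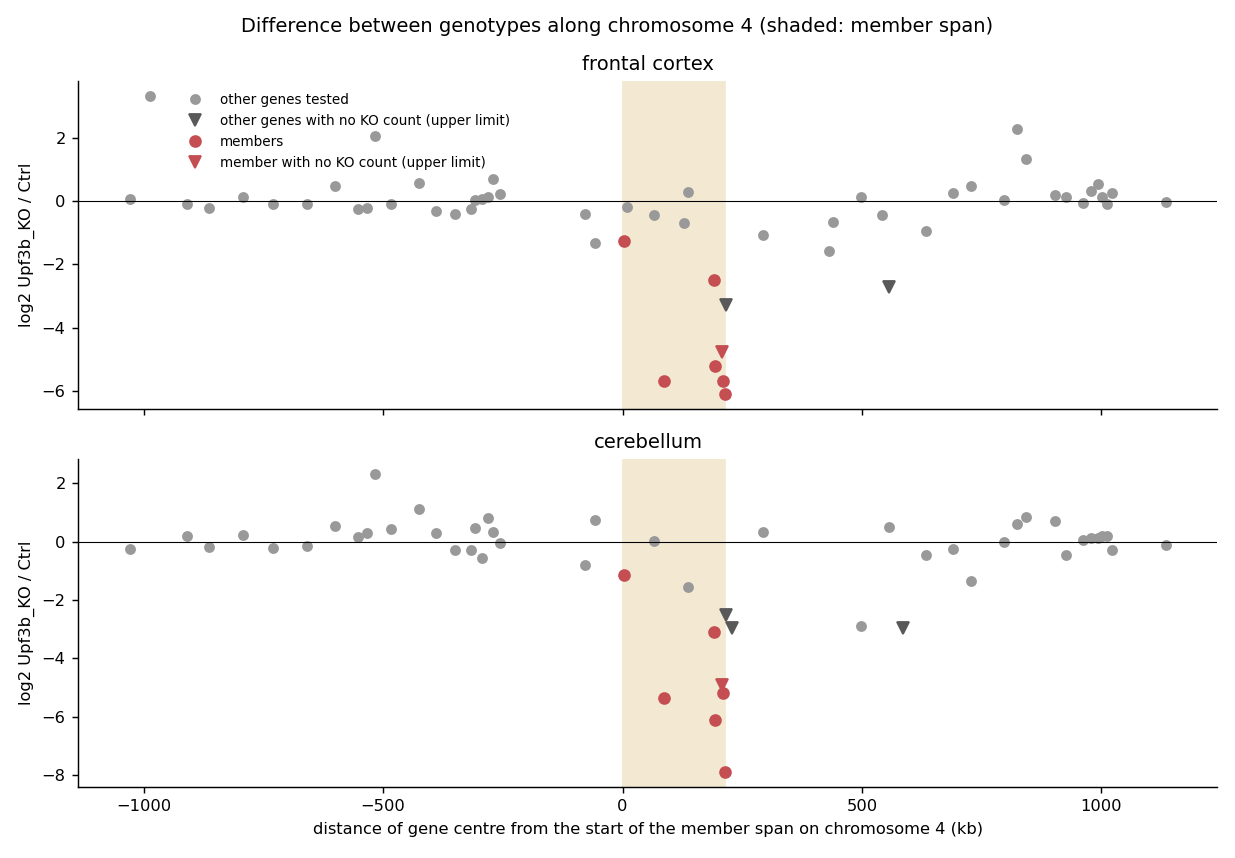
Log2 ratio of Upf3b_KO to Ctrl for the members (red) and the other tested genes (grey) against distance in kb from the start of the member span, in frontal cortex (top) and cerebellum (bottom); triangles are upper limits for genes with no knockout count. The members other than 4933409K07Rik lie at -2.48 or lower in both panels, and the other tested genes inside the span lie between -1.55 and 0.29.

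Of the 14 genes of the Ccl21 and Ccl27 chemokine system in the files (ligands, receptors and the interleukin-11 receptor genes beside them), 7 were tested in frontal cortex and 0 were called (edgeR), with 3 at an unadjusted p under 0.05 and 0 called by DESeq2. In cerebellum 10 were tested and 3 were called lower, Ccl19 and the Ccl21f copies Ccl21b and Ccl21e, which carry identical values. Ccl19 is the call that shares no reads with a member, and 2.86% of all tested genes were called lower there. The median log2 difference of the tested genes was 0.22 in frontal cortex and -0.42 in cerebellum, beside the same medians over all genes. Ccl19 stood at 0.882 ± 0.147 CPM in Ctrl Cere (n = 4) and 0.360 ± 0.106 CPM in Upf3b_KO Cere (n = 3), with a log2 difference of -1.35 ± 0.36 (SE, adjusted p = 0.003), and differed by 0.49 ± 0.41 (adjusted p = 0.33) in frontal cortex.

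The receptor Ccr7 had few counts, between 13 and 25 per group, and was not tested. Ackr4, a scavenger receptor that takes up Ccl21 and Ccl19, had log2 differences of 1.03 ± 0.4 (adjusted p = 0.036) in frontal cortex and -0.38 ± 0.15 (adjusted p = 0.034) in cerebellum, and was called higher in control cerebellum than control cortex, by 3.77 ± 0.22. Ccr10, the receptor of Ccl27, was tested in cerebellum, at -0.2 ± 0.43 (adjusted p = 0.7). Ccl27a was 38.2 ± 1.91 CPM in Ctrl FC and 46.9 ± 0.783 CPM in Upf3b_KO FC (n = 4 each), a log2 difference of 0.22 ± 0.04, and differed by -0.05 ± 0.07 (adjusted p = 0.59) in cerebellum. Il11ra1, the intact receptor gene, differed by 0.07 ± 0.04 (adjusted p = 0.2) in frontal cortex and by -0.57 ± 0.04 in cerebellum, under a fold of 2. Il6st, the shared signalling chain, differed by -0.15 ± 0.03 and -0.38 ± 0.02, while Il11 and Il11ra2 did not pass the test in either region.

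Markers of other cell types were measured beside these results. The summed level of 6 choroid plexus genes was 20.4 to 21.6 CPM in Ctrl FC and 2160 to 2215 CPM in Upf3b_KO FC, and 25.1 to 28.9 CPM in Ctrl Cere and 1383 to 1405 CPM in Upf3b_KO Cere, with 6 of 6 called higher in each region. All 8 spermatid genes were called higher in frontal cortex and all 7 tested in cerebellum, with sums of 28.4 to 32.7 CPM in Ctrl FC and 236 to 247 CPM in Upf3b_KO FC, and 1.24 to 1.53 and 14.8 to 16.1 CPM in cerebellum. All 6 striatal genes were called higher in Upf3b_KO FC, with a sum of 136 to 145 CPM in Ctrl and 706 to 717 CPM in the knockout. In cerebellum 5 of 7 cerebellar neuron genes were called lower, with a sum of 7444 to 7587 CPM in Ctrl and 2951 to 2972 CPM in Upf3b_KO. In cerebellum the sum of the 6 striatal genes was 365 to 378 CPM in Ctrl and 314 to 324 CPM in Upf3b_KO, with Ppp1r1b at 243 CPM in Ctrl and 127 CPM in the knockout. The part of these lists in the result was not tested. In bulk tissue, fewer cells of a type and less RNA per cell cannot be told apart.

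Genes of cells known to make or meet Ccl21 were measured too. The sum of 6 genes of lymphatic endothelium and meninges was 132 to 138 CPM in Ctrl FC and 120 to 126 CPM in Upf3b_KO FC, and 296 to 302 CPM in Ctrl Cere and 195 to 205 CPM in Upf3b_KO Cere. Most of these sums came from Reln and Prox1, which brain neurons also express, so they do not show lymphatic or meningeal cells. Reln stood at 225 CPM in Ctrl Cere and 137 CPM in Upf3b_KO Cere, and Prox1 at 61.8 and 49.9 CPM. The other genes had means of 8.49 and 8.76 CPM (Pdpn), 2.49 and 3.69 CPM (Flt4), 0.603 and 0.344 CPM (Lyve1) and 0.0319 and 0.306 CPM (Mmrn1) in the same groups. Of the 5 tested genes of this list, 0 were called in either region (edgeR; 3 in frontal cortex and 4 in cerebellum had an unadjusted p under 0.05, and DESeq2 called 0), with a median log2 difference of -0.0087 in frontal cortex and -0.36 in cerebellum. The sum of 6 genes of lymphocytes and antigen-presenting cells was 18.4 to 19.2 CPM in Ctrl FC and 14.3 to 17.4 CPM in Upf3b_KO FC, and 15.9 to 17.9 CPM in Ctrl Cere and 13.8 to 15.4 CPM in Upf3b_KO Cere. Its genes went in both directions: Cd74 stood at 14.2 CPM in Ctrl FC and 8.59 CPM in Upf3b_KO FC, and at 13.4 and 9.82 CPM in cerebellum, whereas Ptprc stood at 4.10 and 6.89 CPM in frontal cortex and at 2.79 and 3.82 CPM in cerebellum, all under a fold of 2. In cerebellum 1 of its 4 tested genes, Cd3e, was called higher by edgeR and 0 by DESeq2. The labelled regions could be told by their own markers: 7 of 7 cortical neuron genes were called higher in control cortex and 7 of 7 cerebellar genes in control cerebellum. Between genotypes, 1 of the 5 cortical genes tested in cerebellum, Lamp5, was called higher in Upf3b_KO Cere, at 123 ± 2.11 CPM (n = 3) against 0.506 ± 0.209 CPM in Ctrl Cere (n = 4). Of the 7 tested in frontal cortex, Fezf2 was called lower in Upf3b_KO FC, at 16.8 ± 0.738 CPM against 33.2 ± 0.913 CPM in Ctrl FC (n = 4 each). The part of these differences in the results was not tested.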

How the data were processed

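The deposited files were 2 matrices of expected counts per Ensembl transcript, which the authors made with STAR 2.5.2b on GRCm39 and RSEM. The RSEM version and the use of strand are not given in the sources used here. Of 142435 transcripts, 141102 matched GENCODE vM39 by identifier, with 99.3% to 99.4% of the counts, and were summed into genes. The authors had counted on an earlier Ensembl release, so transcript lengths, levels per kb and shared 31-mers given here rest on vM39 models that may differ from those counted. CPM used all counts of a library. The deposited expected counts were rounded for edgeR 4.0.16 (TMM scaling, filterByExpr with a minimum count of 10, quasi-likelihood test, Benjamini-Hochberg adjustment over all features tested) in R 4.3.3. Tests were also run on simulated data of known answer. The members and gene lists were chosen with earlier results of these data known.

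Changes of members between genotypes are ratios of group means, with no test. The genes named besides the members were Upf3b, tested genes within the span, and the nearest and the called flanking genes. The chemokine genes, the 5 genes most like the summed members, copies and relatives of the members, and single marker genes were named too. Sequences are from GENCODE vM39 and GRCm39. Copies on chromosome 4 and shared sequence were found with shared 31-mers, blastn 2.17.0, edlib and mafft 7.526. RefSeq promoter entries were not used, since none of the members had one. The labels do not tie libraries to the 4 mice per genotype, so p-values measure the spread between these libraries. Alternatives were DESeq2 1.42.0, other scaling, filters and thresholds, 1 fit over 15 libraries, a replicate block, leaving out each library, and keeping the shallow library. Calls of single striatal marker genes in cerebellum are not reported here.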

Additional observations from a re-analysis of the deposited data

Results flagged for a closer look

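Several libraries stood apart from the other 3 of their group, by Dixon's criterion, which chance meets in about 1 in 20 groups. Among the members, Gm17167 was 0.983 CPM in the first Upf3b_KO FC library, against 0.241 to 0.368 CPM in the others, and Gm17081 was 0.203 CPM in the second Upf3b_KO FC library, against 0 to 0.0108 CPM. Among their copies, Gm3883 was 2.64 CPM in the first Ctrl Cere library and 0 in the others. Spata31f1c was 0.0774 CPM in the third Ctrl FC library, against 16.9 to 19.7 CPM, and Spata31f1d was 22.1 CPM there, against 1.23 to 1.33 CPM. Spata31f1d was also 9.26 CPM in the third Upf3b_KO FC library, against 0.488 to 0.874 CPM. Spata31f1a was 0.42 CPM in the second Ctrl Cere library, against 0.691 to 0.737 CPM.

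The effect of the knockout differed between the regions in 4 genes near the members or in the chemokine list, by an interaction term in edgeR (cerebellum minus frontal cortex, log2 ± SE). It was 2.39 ± 0.44 for Ccl27al (adjusted p = 6.5e-05), 7.88 ± 2.12 for Gm2163 (adjusted p = 0.0036), -1.85 ± 0.55 for Ccl19 (adjusted p = 0.0067) and -1.41 ± 0.36 for Ackr4 (adjusted p = 0.0017). The value of Gm2163 rests on knockout libraries at 0 in frontal cortex and is no measure of size. The interaction was not given for the members, which were chosen for a fall in both regions.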

How the results depend on the processing

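Of 129 alternative values of single members between genotypes, 126 moved by less than 1 SD, which is wide for members with few knockout counts, and none changed sign. The summed log2 ratio, -2.11 in frontal cortex and -3.15 in cerebellum, ranged from -2.18 to -2.02 and from -3.24 to -3.08 without 1 library each. In cerebellum it was -3.56 with the shallow library kept and -2.69 with the copies added. Without 4933409K07Rik, an alternative chosen after seeing the data, it was -5.13 and -5.66. Gm17167, near 0 between control regions, was 0.0035 in the fit over 15 libraries and ranged from -0.0661 to 0.00779 without 1 library, and Gm5859 from -0.076 to 0.298. Ccl21f and its copy sum, Gm17167, Gm54215, Gm17081 and the tandem sum each moved by over 1.5 times in at least 1 region without 1 knockout library, as described beside their values (the sums were an alternative chosen after seeing the data).

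When any fold was allowed at an adjusted p under 0.05, 9711 genes in frontal cortex, 11453 in cerebellum and 13406 between control regions were called, in place of 1861, 2339 and 4402. Genes of the span and flanks called were then 27, 30 and 36 (6, 6 and 16 as reported), and chemokine genes 3, 6 and 7 (0, 3 and 4). With no filter, 14 and 12 genes of the span and flanks and 2 chemokine genes in frontal cortex were called. With a minimum count of 30 there were 3 in frontal cortex, and 1 chemokine gene in cerebellum. One fit over 15 libraries called 3 chemokine genes in frontal cortex. Without 1 library, the span and flanks gave 6 to 11 in frontal cortex (11 without Upf3b_KO FC replicate 3 and 10 without replicate 1) and the chemokine list 0 to 2 there, 2 without Ctrl FC replicate 4 or any Upf3b_KO FC replicate. The replicate block lowered transcripts called from 1362 to 460 and from 2113 to 553. Cerebellar transcripts called without 1 library were 1354 to 1767, at most 1387 without an Upf3b_KO replicate. Same-numbered libraries did not deviate together (correlations from -0.04 to 0.06), so the numbers were not taken as pairs. The shallow library's depth limits it to levels above 46.2 CPM.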
